A study of Mus musculus with 45 samples.

Results

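The stefin genes Stfa1, Stfa2, Stfa3, Stfa2l1, Cstdc4 and Cstb and the whey acidic protein (WAP) gene Wfdc17 were followed in RNA sequencing of 45 mouse tissue libraries. These 7 genes were selected on their rise in spleens of mice with 4T1 tumors, so their spleen values are given as a description with no test. The selection rule did not use lungs, scaffolds and primary tumors, and these are tested. Earlier results of these data were known when the genes were chosen, and the tissues may come from the same mice. These tests may therefore not be independent of the choice. All 7 were present among the 55367 gene symbols of the table. Female BALB/c mice carried porous polycaprolactone scaffolds under the skin, an implanted niche that recruits immune cells, and then received 67NR, 4T07 or 4T1 cells in a mammary fat pad, while healthy control mice received none. These are sister triple-negative mammary carcinoma lines, of which 67NR is nonmetastatic, 4T07 is invasive but nonmetastatic and 4T1 metastasizes, and each was injected as a single established line. Tissues were taken on day 14, giving 15 groups of 3 libraries: spleens, lungs and scaffolds of control, 67NR, 4T07 and 4T1 mice, and the primary tumors of the 3 lines.

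Stefins are small cytosolic inhibitors that block papain-like cysteine proteases, the lysosomal cathepsins, by occupying the active site cleft. The mouse stefin A genes lie next to each other on chromosome 16 as a tandem array that arose by duplication, and they are known for high expression in neutrophils and in stratified epithelium. Stefin B, encoded by Cstb, is a distant relative that most cells make, and its loss causes a progressive myoclonus epilepsy in humans. Wfdc17 encodes a small secreted protein with a WAP domain, a fold of serine protease inhibitors, and was described in activated macrophages and microglia, where it dampens inflammatory activation.

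The 110 bases before the transcription start are shown for the members with a RefSeq promoter (GRCm38.p6), because the results turn on these genes. A promoter was found for 6 of the 7 members, and Cstb had no entry. Capitals mark the stretches that all 5 stefin A promoters share at a similar distance from the start, and each line is written 5′ to 3′ on the strand of the gene.
Stfa1, chr16:36277038-36277147, plus strand: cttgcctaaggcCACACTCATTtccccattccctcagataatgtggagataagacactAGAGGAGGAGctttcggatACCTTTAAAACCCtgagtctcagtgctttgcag
Stfa2, chr16:36408364-36408473, minus strand: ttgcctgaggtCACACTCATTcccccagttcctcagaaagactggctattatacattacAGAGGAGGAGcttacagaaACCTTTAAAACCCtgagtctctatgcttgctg
Stfa3, chr16:36455393-36455502, minus strand: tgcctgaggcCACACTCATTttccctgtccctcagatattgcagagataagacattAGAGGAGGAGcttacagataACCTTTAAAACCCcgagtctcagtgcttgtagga
Stfa2l1, chr16:36156701-36156810, plus strand: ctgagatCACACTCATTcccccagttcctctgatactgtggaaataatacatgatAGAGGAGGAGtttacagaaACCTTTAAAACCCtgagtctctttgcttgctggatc
Cstdc4, chr16:36184102-36184211, plus strand: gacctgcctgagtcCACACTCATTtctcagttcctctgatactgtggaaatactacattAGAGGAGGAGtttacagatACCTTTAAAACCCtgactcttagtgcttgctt
Wfdc17, chr11:83703946-83704055, plus strand: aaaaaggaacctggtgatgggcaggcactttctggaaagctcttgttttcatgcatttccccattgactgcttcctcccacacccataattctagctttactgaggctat

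The stretch nearest the start, ACCTTTAAAACCC, began 32 to 36 bases before it and was present in 8 of 32851 mouse promoters (0.0244%). Of those 8 promoters, 7 belonged to genes of the stefin cluster, namely the 5 members, Csta3 and Cstdc3. CACACTCATT was found in 27 promoters (0.0822%), 8 of them in the stefin cluster. AGAGGAGGAG was commoner, in 268 promoters (0.816%) of 251 genes, and none of the 3 stretches was in the Wfdc17 promoter. Known motif letters were searched on both strands of the 250 bases before the start. The TATA box letters TATAAA were in 0 of the 5 stefin A promoters and in 12.4% of all promoters, while TTTAAA, which lies inside the 13-base stretch, was in 5 of 5 and in 12.1% of all. GAGGAA, the core letters bound by PU.1, was in 5 of 5 and in Wfdc17, against 23.3% of all. The C/EBP letters TTGCNNAA were in Stfa1 (9.56% of all) and the STAT letters TTCNNNGAA in Cstdc4 (7.02% of all), each in 1 of 5.

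Reads of the stefin A genes can match more than 1 gene. In GENCODE vM1 transcripts the coding sequences of pairs of stefin A members were 76.9% to 98.1% identical. Stfa2 and Stfa2l1 were the closest pair, with 98.1% identity in the coding sequence and 94.0% in the last 100 bases, the end from which this 3′ tag assay reads. The stefin A members shared 56.7% to 64.1% of coding bases with Cstb. How the authors counted reads matching more than 1 gene is not given in the sources used here, so the summed count of the 5 stefin A members is reported beside single genes. The sum does not settle this for reads shared with genes outside it, since Cstdc5 was 98.0% identical to Stfa1 in the coding sequence and in the last bases.

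Library totals ran from 3491888 to 8175380 counts, and levels are given as counts per 1000000 counts of the library (CPM), with 3 counts used as the floor of detection in a library. The labels do not say whether the tissues of a group came from the same mice, so the p-values measure only the spread between these samples, and replicate numbers are names in accession order. The lung libraries held the markers of lung epithelium at a summed 5693 to 37121 CPM against at most 419 elsewhere, whereas the 67NR tumors held 5 epithelial tumor markers at only 13.8 to 20.4 CPM, against 105 to 161 in 4T07 and 943 to 1072 in 4T1 tumors. Some libraries stood apart from their group. Replicate 2 of the control scaffolds had a summed level of 15 mature neutrophil markers of 4447 CPM against 1189 and 1349 in the others, replicate 1 of the 4T07 scaffolds had 8855 against 3418 and 3069, and replicate 2 of the 67NR tumors had 432 against 94.3 and 79.0. The calls that change without them are given below.

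In spleens, the tissue of the choice, 6 of 7 members had fitted levels more than 2-fold above control with 4T1, and 7 of 7 more than 2-fold above 67NR. The median log2 differences of the members were 4.59 and 5.92, against -0.10 and -0.07 over all genes. Stfa2, a stefin A gene, stood at 175, 51.2 and 125 CPM in the 4T1 spleens, at 14.2, 44.2 and 43.8 CPM in 4T07, at 0.63, 0.51 and 0 CPM in 67NR and at 1.55, 1.62 and 0 CPM in control spleens. Stfa3 stood at 133, 51.4 and 88.7 CPM with 4T1 and at 8.24, 31.8 and 49.3 CPM with 4T07, against 1.08 to 1.55 CPM in controls. For both genes every 4T1 spleen lay above every 4T07 spleen, and replicate 2 was the lowest of the 4T1 spleens.

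Cstdc4 and Stfa2l1 kept the same order. Cstdc4 stood at 189, 63.2 and 141 CPM with 4T1, 17.9, 22.8 and 24.9 CPM with 4T07 and 4.10 to 5.83 CPM in controls, and its 4T1 and 4T07 groups were far from touching. Stfa2l1 stood at 122, 49.7 and 68.3 CPM with 4T1 and at 13.2, 37.8 and 32.1 CPM with 4T07. Stfa1 was near the floor, with 9, 1 and 4 counts in the 4T1 spleens, 5 in the 4T07 spleens together and 1 in all controls. Wfdc17 stood at 508, 310 and 587 CPM with 4T1, 93.9, 63.7 and 47.5 CPM with 4T07, 7.66 to 10.1 CPM with 67NR and 17.5 to 26.8 CPM in controls. Its groups followed each other without overlap, with 67NR below control. The 15 mature neutrophil markers summed to 1039 to 1744 CPM in control, 1007 to 1284 in 67NR, 20865 to 26216 in 4T07 and 11904 to 29327 in 4T1 spleens, with replicate 2 the lowest of the 4T1 spleens, and their part in these levels was not tested. In 4T1 against control spleens the median log2 difference was 6.13 over 9 immature granule genes and 1.24 over 8 erythroid genes. It was -1.44 over 6 B cell and -1.09 over 6 T cell markers, against -0.10 over all genes. The immature granule genes summed to 64.3 to 142 CPM in control and 2502 to 7842 CPM in 4T1 spleens. Cstb was the exception, since its 4T1 spleens (102, 69.5 and 73.3 CPM) lay within the span of the 4T07 spleens (140, 75.2 and 33.5 CPM) and overlapped the controls (92.0, 67.1 and 29.3 CPM), and only the 67NR spleens were apart, at 22.2 to 27.6 CPM.

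Fitted log2 fold changes of 4T1 against control spleens were 7.01 for Stfa2, 6.39 for Stfa3, 4.98 for Cstdc4, 4.59 for Wfdc17, 4.54 for Stfa2l1 and 0.62 for Cstb. Against 4T07 they were 2.88 for Wfdc17, 2.67 for Cstdc4, 1.86 for Stfa2, 1.70 for Stfa3, 1.60 for Stfa2l1 and 0.07 for Cstb. These fits share the 4T1 libraries. Of the stefin A genes, Cstdc4 thus had the widest distance between 4T1 and 4T07 spleens in this fit, although not the widest from control. In 67NR against control spleens the fitted values of all 7 members were below 0, from -0.84 to -1.77, with standard errors of 0.30 to 1.64.

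**Figure D1:**
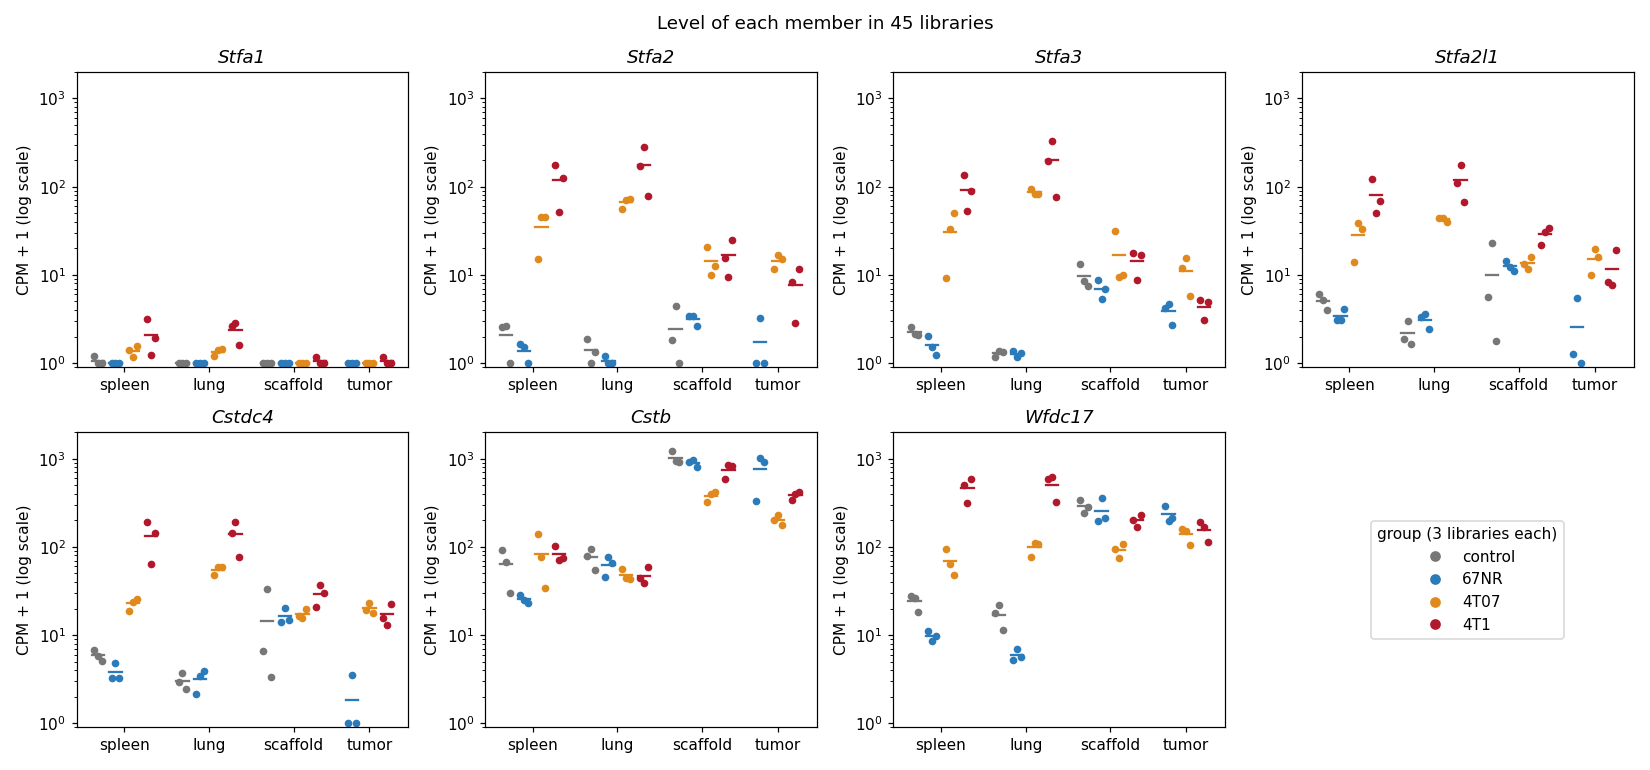
Level of each of the 7 members in every library, as CPM + 1 on a log scale, by tissue, with 1 point per library, a colour for each group and a line at the group mean. Stfa2, Stfa3, Stfa2l1 and Cstdc4 lie far above control and 67NR in 4T07 and 4T1 spleens and lungs, Wfdc17 separates 4T1 from 4T07 in both, and Cstb is highest in scaffolds and tumors.

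In the lungs, the organ to which 4T1 metastasizes, the members other than Cstb rose with both invasive lines and were higher again with 4T1 than with 4T07. Here and below, a gene was called at an adjusted p under 0.10 (tumors 0.05) and a fold change over 2, with edgeR's quasi-likelihood test and Benjamini-Hochberg adjustment over all genes of the tissue. In 4T1 against control lungs 6 of 7 members were called, all higher, where 4.61% of 21937 genes were called and the median log2 difference was 6.09 over the members and -0.00 over all genes, and in 4T1 against 67NR lungs again 6 of 7, where 5.03% were called. The comparisons of 4T07 with control and with 67NR each called 6 of 7 members higher, in comparisons that called 29.0% and 29.7% of all genes. Stfa1 was among these calls with counts under the floor in every 4T07 lung. The call rate was also broad in 4T1 against 4T07 lungs, where 6 of 7 members were higher and 23.5% of genes were called. In 67NR against control lungs 1 of 7 members, Wfdc17, was called and was lower, where 4.25% of genes were called. DESeq2 called 5 members in 4T1 against control, 67NR and 4T07 lungs, and 6 in 4T07 against control and against 67NR lungs. These comparisons share libraries and are not independent of each other.

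Stfa2 stood at 172, 281 and 77.5 CPM in 4T1 lungs and at 54.4, 70.0 and 72.2 CPM in 4T07 lungs, with 7 counts in the 3 control lungs together and 1 in the 67NR lungs. All 4T1 lungs were above all 4T07 lungs, by a log2 difference of 1.38 ± 0.30 (SE, adjusted p = 0.00085, edgeR), and the difference from control was 8.72 ± 0.53 (adjusted p = 7.5e-10, edgeR). Stfa3 stood at 194, 324 and 76.0 CPM with 4T1 and at 94.2, 82.6 and 82.4 CPM with 4T07, against 5 counts in all control lungs. For Stfa3 the lowest 4T1 lung lay below all 4T07 lungs, and the fitted difference was 1.14 ± 0.29 (adjusted p = 0.00361, edgeR). The other pair of stefin A genes did not overlap. Stfa2l1 stood at 110, 175 and 66.4 CPM with 4T1 and 43.4, 42.7 and 39.3 CPM with 4T07 (log2 difference 1.44 ± 0.24, adjusted p = 7.93e-05, edgeR). Cstdc4 stood at 143, 193 and 76.0 CPM against 47.2, 57.8 and 57.7 CPM (1.29 ± 0.24, adjusted p = 0.00018, edgeR). Against control both were over 60-fold higher, with log2 differences of 6.66 ± 0.37 for Stfa2l1 and 6.09 ± 0.34 for Cstdc4 (adjusted p = 2.45e-10 for each, edgeR).

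Stfa1 was detected by few tags, with 10, 13 and 4 counts in the 4T1 lungs, 1, 2 and 2 in the 4T07 lungs and 0 in the control and 67NR lungs. Against a floor of 3 counts per library its 4T1 level was at least 2.61-fold higher than control and at least 2.70-fold higher than 67NR. Its 4T07 counts were all under that floor, so its calls in 4T07 against control and 67NR lungs have no such lower bound. Its difference between 4T1 and 4T07 lungs was 1.83 ± 0.71 (adjusted p = 0.0539, edgeR), and this call was lost with DESeq2 and without any of 4 single libraries. The summed stefin A count gave 621, 975 and 297 CPM in 4T1 lungs and 239, 254 and 252 CPM in 4T07 lungs, a log2 difference of 1.27 ± 0.26 (adjusted p = 0.000473, edgeR).

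Replicate 2 of the 4T1 lungs was the highest for every stefin A member. Without it, 2 of 6 members stayed called in 4T1 against 4T07 lungs, Stfa2l1 and Wfdc17, while Stfa2, Stfa3 and Cstdc4 kept log2 differences of 0.85, 0.56 and 0.94, below the 2-fold limit. The summed stefin A level was 248 ± 7.76 CPM (SD, n = 3) in 4T07 lungs and far more spread in 4T1 lungs, at 631 ± 339 CPM (SD, n = 3).

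Wfdc17 gave the clearest separation of the 2 invasive lines in the lung. It stood at 584, 620 and 319 CPM with 4T1, 76.8, 109 and 108 CPM with 4T07, 16.7, 20.9 and 10.4 CPM in controls and 4.21, 6.01 and 4.63 CPM with 67NR. No pair of these 4 groups overlapped, and 67NR lay below control. The log2 difference of 4T1 from 4T07 was 2.32 ± 0.23 (adjusted p = 1.4e-07), from control 5.00 ± 0.27 (adjusted p = 2.35e-10), and that of 67NR from control was -1.78 ± 0.31 (adjusted p = 0.00225, edgeR).

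Cstb stood at 43.0, 38.1 and 57.9 CPM in 4T1 lungs, 54.8, 43.6 and 41.9 CPM in 4T07 lungs and 78.6, 92.7 and 54.1 CPM in controls. The invasive groups overlapped each other entirely (log2 difference -0.06 ± 0.22, adjusted p = 0.865, edgeR). Against control their fitted levels were lower by less than 2-fold, at -0.68 ± 0.22 with 4T1 (adjusted p = 0.0598) and -0.62 ± 0.22 with 4T07 (adjusted p = 0.0254, edgeR), which is not a call.

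Markers of other cells moved with these lung results. The 15 mature neutrophil markers summed to 477 to 521 CPM in control lungs, 448 to 492 in 67NR, 21385 to 25126 in 4T07 and 12180 to 28324 in 4T1 lungs. Of these 15 genes, 14 rose and Cxcl2, a neutrophil-attracting chemokine named after its value was seen, fell in 4T1 against control lungs. The 9 immature granule genes summed to 4649 to 6386 CPM in 4T07 lungs but 547 to 1525 CPM in 4T1 lungs, and 8 of 9 were called lower with 4T1. Epithelium also differed, with lung epithelial markers at 5693 to 14287 CPM in 4T07 lungs and 28467 to 37121 CPM in all other lungs, and in 4T1 against 4T07 lungs 4 of 5 of these epithelial markers were higher while 8 of 8 erythroid, 5 of 6 B cell, 3 of 6 T cell and 6 of 10 macrophage and monocyte markers were lower. The part of these markers in the member results was not tested. In bulk tissue, fewer cells of a type and less RNA per cell cannot be told apart.

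**Figure D2:**
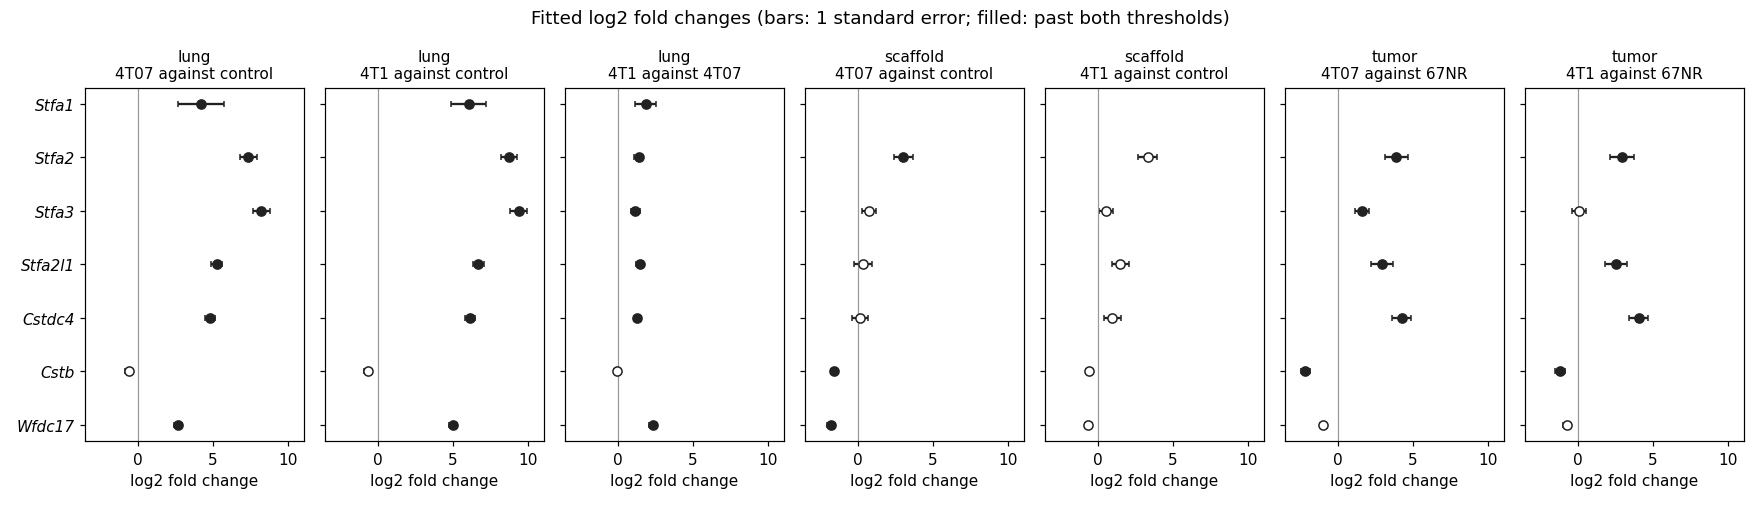
Fitted log2 fold change of each member in 7 comparisons of lungs, scaffolds and primary tumors, with bars of 1 standard error and filled points past both thresholds. The lung points of all members but Cstb are filled in the 3 lung comparisons shown, at 1.14 to 9.34, whereas Cstb and Wfdc17 lie below 0 in 4T07 scaffolds and in both tumor comparisons.

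To set the members beside the cells known to make stefin A, each library's level was divided by its summed mature neutrophil markers and expressed per 1000 CPM of markers, as a description with no test. The sum leans on S100a8 and S100a9, which made up 88.0% to 94.5% of it in the 4T07 and 4T1 lungs and spleens. The stefin A sum stood at 25.4, 34.4 and 24.3 in 4T1 lungs and at 9.60, 10.1 and 11.8 in 4T07 lungs, with no overlap, and at 21.2, 18.1 and 15.7 against 2.20, 6.55 and 5.75 in spleens. These are ratios of the means of 2.67 in lungs and 3.80 in spleens. Controls stood at 7.37, 9.97 and 5.77 in lungs, overlapping 4T07, and at 11.2, 6.75 and 7.89 in spleens. Against the 13 other markers, a reference added after seeing the data, the stefin A sum stood at 230, 286 and 211 in 4T1 lungs and 173, 161 and 169 in 4T07 lungs, a ratio of only 1.44, and the spleen ratio was 3.09. Of the 15 single markers, 7 were called higher and 0 lower by edgeR in 4T1 against 4T07 lungs, where 23.5% of genes were called. The others were not called, and 11 of the 15 had an unadjusted p under 0.05, as did 9929 of all 21937 genes. Their median log2 difference was 0.81, against 0.04 over all genes. In spleens the median was 0.41, against 0.05 over all genes.

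Wfdc17 differed more on both scales. Per 1000 CPM of all 15 markers it stood at 23.9, 21.9 and 26.2 in 4T1 lungs and 3.08, 4.35 and 5.05 in 4T07 lungs, a ratio of means of 5.77, and at 17.3, 26.1 and 21.8 against 3.83, 3.05 and 1.81 in spleens, a ratio of 7.50. Against the 13 other markers the ratios were 3.16 in lungs and 5.94 in spleens, again without overlap of the groups. The control lungs, at 32.1, 41.3 and 21.7 per 1000 CPM of the 15 markers, overlapped the 4T1 lungs. The control spleens, at 21.2, 14.6 and 16.8, likewise overlapped the 4T1 spleens. With S100a8 and S100a9 alone as the reference, the ratios were 2.83 and 3.86 for stefin A and 6.10 and 7.64 for Wfdc17, which follows from their weight in the sum and is no separate check. Cstb gave 1.33 in lungs and 1.13 in spleens with 15 markers and 0.715 and 0.876 with the 13 others, its groups overlapped with the latter, and its direction also turned when single libraries were left out, with log2 ratios from -0.34 to 0.73 in lungs and -0.22 to 0.72 in spleens. Neutrophil genes did not move as 1 block between these lungs, since in 4T1 against 4T07 lungs S100a8, a cytosolic protein of mature neutrophils, differed by -0.13 on the log2 scale (adjusted p = 0.712) and the granule protein gene Ngp by -2.17 (adjusted p = 1.01e-05, edgeR). Retnlg, a resistin-like gene of neutrophils, differed by 1.12 (adjusted p = 0.00222), and the cytokine gene Il1b by 2.06 (adjusted p = 2e-08, edgeR).

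**Figure D3:**
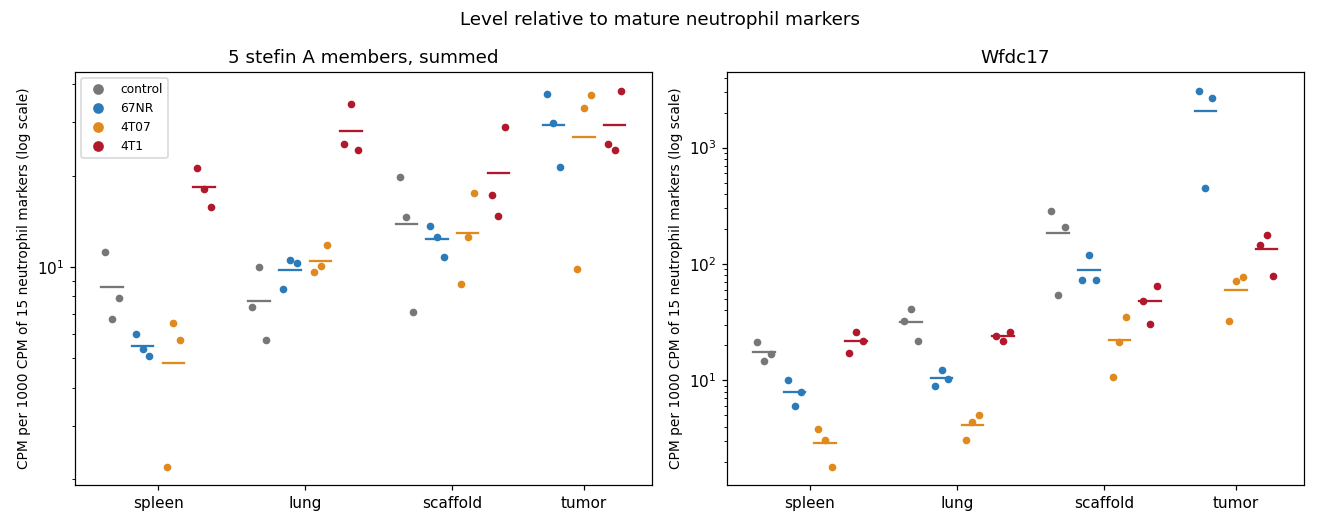
Summed level of the 5 stefin A members (left) and of Wfdc17 (right) per 1000 CPM of 15 neutrophil markers, on log axes, with 1 point per library and a line at the group mean. In spleens and lungs the 4T1 points lie above all 4T07 points in both panels, with means of 28.0 against 10.5 for stefin A in lungs (ratio 2.67, or 1.44 without S100a8 and S100a9), while the tumor groups overlap for stefin A.

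In scaffolds, the stefin A genes were low in all groups and few changed, while Cstb and Wfdc17, both well expressed there, fell with 4T07. Stfa1 had 1 count in the 12 scaffold libraries together and was not tested, which left 6 members. In 4T07 against control scaffolds 1 of 6 was called higher and 2 lower, where 7.44% of 22156 genes were called, and in 4T07 against 67NR scaffolds 2 were higher and 2 lower, where 5.85% were called. In 4T1 against 4T07 scaffolds 2 of 6 were called, both higher, where 1.00% of genes were called. The remaining comparisons called 0 of 6 members with edgeR and with DESeq2. They called 0.0226% of all genes in 4T1 against control, 0.0226% in 4T1 against 67NR and 0% in 67NR against control. At an unadjusted p under 0.05, edgeR gave 4, 3 and 0 members in these 3 comparisons. Over all 22156 genes, 2682, 2234 and 626 had an unadjusted p under 0.05 in the same order, and DESeq2 called 64, 48 and 1.

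Stfa2 stood at 19.4, 8.85 and 11.5 CPM in 4T07 scaffolds and 14.7, 8.39 and 24.1 CPM in 4T1 scaffolds, against 0.84, 3.48 and 0 CPM in controls and 2.40, 2.41 and 1.64 CPM with 67NR. Both invasive groups lay above all control scaffolds. The change with 4T07 passed (log2 3.02 ± 0.63, adjusted p = 0.00603), and that with 4T1, of like size, did not (3.31 ± 0.63, adjusted p = 0.118, edgeR). Stfa2l1 and Cstdc4 turned on replicate 2 of the controls, which held 21.9 and 32.1 CPM of them against 4.62 and 0.79 CPM of Stfa2l1 and 5.66 and 2.36 CPM of Cstdc4 in the others. Their 4T1 scaffolds stood at 20.9, 29.5 and 33.0 CPM and 19.8, 36.4 and 29.1 CPM.

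Without that control library, 3 of 6 members were called in 4T1 against control scaffolds, Stfa2 at 5.25, Stfa2l1 at 3.30 and Cstdc4 at 2.71 (adjusted p = 0.0146, 0.0146 and 0.0131, edgeR), and 5 were called in 4T07 against control. The shares of all genes called without that library are not given here, so a general rise in calls cannot be told apart from these counts. Stfa3 reached 30.5 CPM in replicate 1 of the 4T07 scaffolds and 8.45 and 9.01 CPM in the others, against 6.45 to 12.4 CPM in controls. Its call against 67NR scaffolds (1.36 ± 0.46, adjusted p = 0.0735, edgeR) was lost without that library, at 0.50, and without any of the 67NR scaffolds, at 1.17 to 1.58. The summed stefin A count was called in none of the 6 scaffold comparisons, the largest difference being 1.28 ± 0.42 in 4T1 against control (adjusted p = 0.272, edgeR).

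Cstb, the widely expressed stefin B, stood at 324, 396 and 417 CPM in 4T07 scaffolds, 1212, 941 and 921 CPM in controls, 907, 962 and 806 CPM with 67NR and 594, 843 and 821 CPM with 4T1. The 4T07 group lay below every other scaffold. It fell by 1.58 on the log2 scale against control (SE 0.20, adjusted p = 0.000616) and by 1.30 against 67NR (SE 0.20, adjusted p = 0.00153, edgeR). The 4T1 scaffolds lay below control too, but the difference of -0.57 ± 0.20 did not pass (adjusted p = 0.293, edgeR), nor did that of Wfdc17 (-0.64 ± 0.24, adjusted p = 0.305, edgeR).

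Wfdc17 followed the same order in scaffolds, at 94.4, 73.5 and 107 CPM with 4T07, 342, 239 and 280 CPM in controls, 194, 361 and 211 CPM with 67NR and 201.3, 169 and 226 CPM with 4T1. The 4T07 scaffolds were again apart from all others, at -1.80 ± 0.25 against control (adjusted p = 0.000655, edgeR). Both genes were higher in 4T1 than in 4T07 scaffolds, Cstb by 1.02 ± 0.20 (adjusted p = 0.0431) and Wfdc17 by 1.16 ± 0.25 (adjusted p = 0.0489, edgeR). These 2 calls were fragile, since 0 to 2 members stayed called when single libraries were left out and 0 when the other groups were dropped from the fit. The 10 macrophage and monocyte markers summed to 3247 to 3937 CPM in 4T07 scaffolds and 3470 to 4176 CPM in the other groups, and 1 of 10 was called in 4T07 against control, lower. In the same comparison 9 of 9 immature granule genes, 7 of 8 erythroid and 3 of 8 keratinocyte markers were called higher, and of the 15 mature neutrophil markers 5 were higher and 4 lower. Without replicate 1 of the 4T07 scaffolds these counts were 9 of 9, 5 of 8, 1 of 6 tested, and 2 higher and 2 lower, and without replicate 2 of the controls 9 of 9, 7 of 8, 2 of 8, and 5 higher and 1 lower. Replicate 1 of the 4T07 scaffolds had the highest erythroid sum, 25223 CPM against 6895 and 3132 in the others, and the highest keratinocyte sum, 145 CPM against 25.9 and 12.3, and the part of these markers in the scaffold results was not tested.

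The same contrast thus took different values in the lung and the scaffold, and the difference itself was tested in 1 fit over both tissues with 25093 genes, at an adjusted p under 0.10 with no fold limit. For 4T1 against control, 5 of the 6 members tested passed, where 1.07% of genes passed. The lung change exceeded the scaffold change by 8.78 ± 0.86 for Stfa3, 5.61 ± 0.40 for Wfdc17 and 5.11 ± 0.74 for Cstdc4 on the log2 scale. For 4T07 against control all 6 tested members passed, where 23.2% of genes did, and for 4T1 against 4T07 there were 3, where 21.2% did.

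In primary tumors, 4 stefin A genes were higher with 4T07 than with 67NR and 3 with 4T1, and Cstb was lower with both. Stfa1 had 1 count in the 9 tumors and was not tested. In 4T07 against 67NR tumors 4 of 6 members were called higher and 1 lower, where 28.9% of 20508 genes were called and the median over all genes was 0.16. In 4T1 against 67NR tumors 3 were higher and 1 lower, where 20.7% were called, and in 4T1 against 4T07 tumors 1 of 6, Stfa3, was called and was lower, where 8.61% were called.

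Cstdc4 stood at 18.1, 22.1 and 16.9 CPM in 4T07 tumors and 14.6, 12.1 and 21.8 CPM in 4T1 tumors, while in 67NR tumors it had 9 counts in replicate 2 and 0 in the others. Its log2 difference from 67NR was 4.22 ± 0.62 with 4T07 (adjusted p = 7.78e-05) and 4.04 ± 0.63 with 4T1 (adjusted p = 0.000154, edgeR), and the 2 invasive groups overlapped. Stfa2 stood at 10.6, 15.6 and 14.1 CPM with 4T07 and 7.31, 1.84 and 10.8 CPM with 4T1, against 0, 2.24 and 0 CPM with 67NR. Its 4T1 and 67NR tumors overlapped, and the 4T1 call (2.93 ± 0.82, adjusted p = 0.0133, edgeR) was lost with DESeq2 (adjusted p = 0.0694) and without replicate 3 of either group. Stfa2l1 stood at 9.03, 18.9 and 15.0 CPM with 4T07 and 7.31, 6.76 and 17.9 CPM with 4T1, above all 67NR tumors (0.27, 4.48 and 0 CPM). It rose by 2.91 ± 0.72 with 4T07 (adjusted p = 0.00455) and 2.53 ± 0.73 with 4T1 (adjusted p = 0.015, edgeR), the latter lost with DESeq2 and without any of 3 single libraries.

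Replicate 2 of the 67NR tumors held all of the Cstdc4 and Stfa2 counts of its group and 16 of 17 Stfa2l1 counts. Without it, 6 members were called in 4T07 and 3 in 4T1 against 67NR tumors, and the shares of all genes called without it are not given here. Cstdc4, Stfa2 and Stfa2l1 stayed called with both lines and Stfa3 with 4T07, Wfdc17 was added as lower with 4T07, and Cstb was lost with 4T1.

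Stfa3 departed from its relatives, at 11.0, 14.5 and 4.798 CPM with 4T07, 4.21, 2.05 and 3.89 CPM with 4T1 and 3.23, 3.64 and 1.69 CPM with 67NR. The 4T1 and 67NR tumors overlapped (0.05 ± 0.48, adjusted p = 0.95), and the 4T07 tumors were above both, by 1.59 ± 0.44 against 67NR (adjusted p = 0.00937, edgeR), a call lost without replicate 2 of 4T07 (1.18) or replicate 3 of 67NR (1.28). The call of Stfa3 between 4T1 and 4T07 tumors (-1.54 ± 0.41, adjusted p = 0.0202, edgeR) was lost without any of 3 single libraries. The summed stefin A count was higher than in 67NR tumors by 2.92 ± 0.48 with 4T07 (adjusted p = 0.000188) and 2.36 ± 0.48 with 4T1 (adjusted p = 0.00143, edgeR). Mature neutrophil markers summed to 1372 to 4957 CPM in 4T07, 934 to 1427 in 4T1 and 79.0 to 432 in 67NR tumors, and per 1000 CPM of them the stefin A sum averaged 26.8 ± 14.8, 29.3 ± 7.64 and 29.4 ± 7.81 (SD, n = 3), with overlap between all 3 groups. The 67NR sums rest on 13, 46 and 6 counts, of which Stfa3 gave 12, 13 and 6. S100a8 and S100a9 made up 23.6%, 78.3% and 18.9% of the markers in these 67NR tumors. With S100a8 and S100a9 alone as the reference the means were 37.8, 57.1 and 103, and the groups again overlapped. In 4T07 against 67NR tumors 14 of 15 mature neutrophil, 9 of 9 immature granule, 7 of 8 erythroid, 4 of 6 B cell and 4 of 6 T cell markers were called higher, and in 4T1 against 67NR tumors 11 of 15, 4 of 9, 0 of 8, 2 of 6 and 2 of 6 (edgeR, with 2 of the 8 erythroid genes at an unadjusted p under 0.05 and 0 by DESeq2). Over all genes, 8481 of 20508 had an unadjusted p under 0.05 in 4T1 against 67NR tumors. Without replicate 2 of 67NR the first set was 14, 9, 7, 4 and 2 and the second 14, 3, 0, 0 and 0. Their part in the tumor results was not tested.

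Cstb stood at 330, 1017 and 920 CPM in 67NR tumors, 202, 226 and 177 CPM with 4T07 and 336, 398 and 414 CPM with 4T1. The 4T07 tumors were below all others, with a difference from 67NR of -2.17 ± 0.32 (adjusted p = 7.05e-05, edgeR), whereas the 4T1 and 67NR groups overlapped in replicate 1 of 67NR and the call there (-1.20 ± 0.31, adjusted p = 0.00761) was lost without replicate 2 of 67NR, at -0.90. Wfdc17 stood at 291, 196 and 210 CPM with 67NR, 160, 152 and 105 CPM with 4T07 and 191, 167 and 112 CPM with 4T1. Its tumors differed by less than 2-fold, at -0.98 ± 0.21 with 4T07 (adjusted p = 0.00179) and -0.76 ± 0.21 with 4T1 (adjusted p = 0.012, edgeR) against 67NR, and these are not calls. The 4T07 difference lay near the fold limit and passed it with DESeq2 (adjusted p = 7.55e-05) and without any of 4 single libraries.

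Other genes of the stefin cluster rose beside the members in some comparisons and not in others. The 11 listed symbols included older names for Cstdc4, a member, and for Cstdc5, and 5 of the 11 were in the table. In 4T1 against control lungs 3 of 4 tested rose, where 4.61% of genes were called, with a list median of 6.50 against -0.00 over all genes. In 4T1 against 4T07 lungs edgeR and DESeq2 called 0 of 4, where edgeR called 23.5% of genes, and the list median was 0.68. In 4T1 against 67NR tumors both called 0 of 4, where edgeR called 20.7%, and the list median was 2.58. At an unadjusted p under 0.05 edgeR gave 1 and 2 of these genes, against 9929 of 21937 and 8481 of 20508 over all genes. These relatives can share reads with the members, so their spleen values are also a description with no test. In 4T1 against control spleens the list median was 6.04 over 3 genes, against -0.10 over all genes. Cstdc5, the relative of Stfa1 with 98.0% of its coding bases, stood at 858, 1350.0 and 357 CPM in 4T1 lungs, 408, 473 and 412 CPM in 4T07 lungs and 1.62 to 2.96 CPM in controls. It rose by 8.65 with 4T1 (adjusted p = 8.59e-11), and its difference between 4T1 and 4T07 lungs, 0.93, missed the fold limit (adjusted p = 0.0119, edgeR). Cstdc6 stood at 7.73, 6.07 and 4.20 CPM in 4T1 lungs against 0, 0.18 and 0 CPM in controls (adjusted p = 5.17e-06, edgeR). In spleens it stood at 5.75, 2.20 and 19.7 CPM with 4T1 against at most 0.23 CPM in controls. In 4T07 scaffolds Cstdc5 rose by 3.20 (adjusted p = 0.00239, edgeR). In 4T1 against 4T07 scaffolds the list median was -0.52, against 0.92 for the members.

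A list of 11 genes, the cysteine cathepsins and legumain, gave calls in both directions. Of these, only the papain-like cathepsins belong to the proteases described above as blocked by stefins. In 4T07 against control lungs 2 rose and 2 fell, where 29.0% of all genes were called. There 10 of 11 had an unadjusted p under 0.05, as did 11004 of all 21937 genes. In 4T07 against 67NR tumors 3 rose and 1 fell, where 28.9% were called. Of the 11, 1 was called in 4T1 against control lungs, Ctsk, the collagen-degrading cathepsin K, which fell by 1.14 on the log2 scale (adjusted p = 0.00427, edgeR). The list median was -0.25, and 4.61% of all genes were called. In 4T1 against control spleens 1 rose, Ctsf at 1.16 (adjusted p = 0.000591, edgeR), and 2 fell. The list median there was -0.13, against -0.10 over all genes. In 4T1 against control scaffolds 0 of 11 were called by edgeR or DESeq2 and 0 had an unadjusted p under 0.05. In 4T1 against 67NR tumors Ctsk rose by 2.02 (adjusted p = 1.78e-05) and Ctsw, a cathepsin of cytotoxic lymphocytes, fell by 1.35 (adjusted p = 0.0131, edgeR). Among the secreted cystatins 1 of 7 rose in 4T1 against control lungs, Cst7, the leukocyte cystatin F, at 1.38 (adjusted p = 0.0607), and 3 fell. In 4T1 against 4T07 lungs Cst7 fell by 3.13 (adjusted p = 4.17e-08, edgeR), opposite in sign to the stefin A genes.

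Relatives of Wfdc17 and the serine proteases of neutrophils were less alike. In 4T1 against control lungs 3 of 10 WFDC genes rose, where 4.61% of all genes were called. In 4T1 against control spleens the median log2 difference was 1.21 over 6 WFDC genes, against -0.10 over all genes. Wfdc21, a WAP gene of myeloid cells, rose by 4.72 in 4T1 lungs (adjusted p = 5.09e-08) and by 4.66 in 4T07 lungs (adjusted p = 5.39e-09), and the 2 did not differ detectably (0.05, adjusted p = 0.92, edgeR), unlike Wfdc17. Wfdc2, an epithelial WAP gene, rose by 6.53 in 4T1 against 67NR tumors (adjusted p = 3.41e-09, edgeR). The neutrophil serine proteases and their inhibitor Serpinb1a rose in 4 of 5 genes in 4T1 and in 5 of 5 in 4T07 against control lungs, but 5 of 5 fell in 4T1 against 4T07 lungs, with Prtn3, proteinase 3, at -4.51 (adjusted p = 9.79e-11) and Ctsg, cathepsin G, at -4.41 (adjusted p = 2.27e-11, edgeR). The list median there was -4.41, against 0.04 over all genes and 1.38 for the 7 members.

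**Figure D4:**
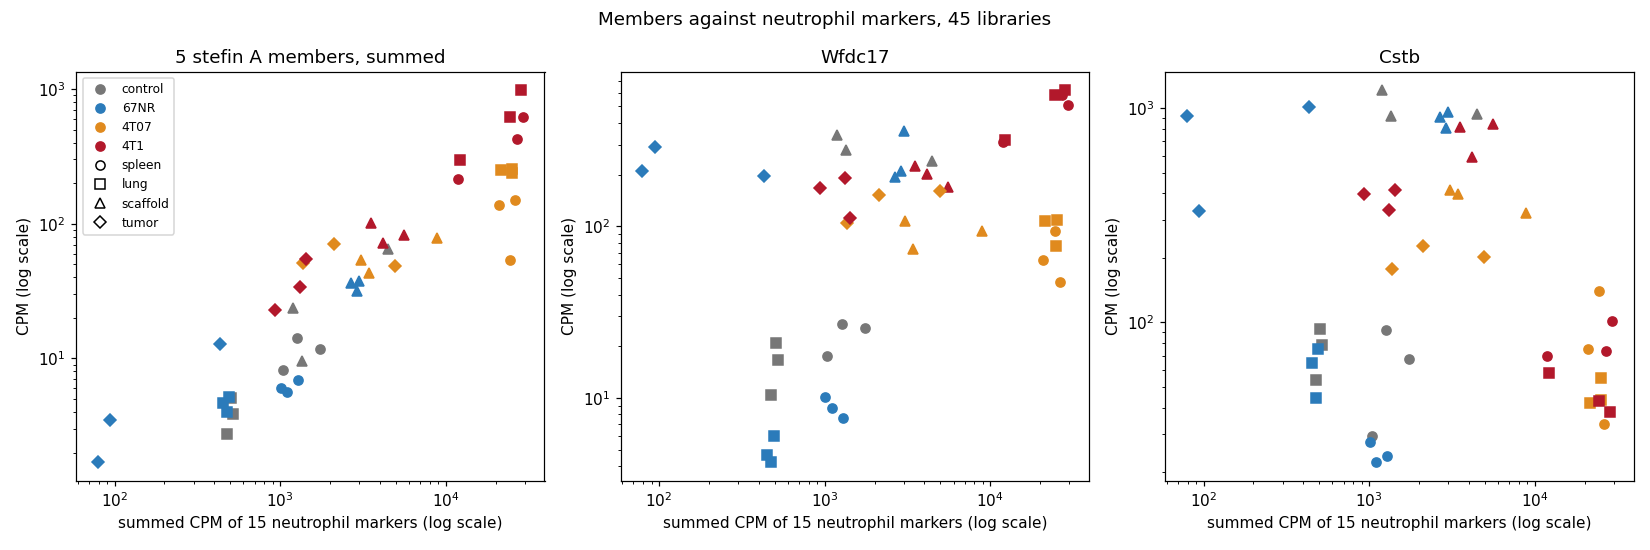
Summed stefin A (left), Wfdc17 (middle) and Cstb (right) in CPM against the summed CPM of 15 neutrophil markers, all on log axes, with a point for each of 45 libraries, colours for groups and shapes for tissues. Stefin A levels follow the marker axis across tissues with the highest values in 4T1 lungs and spleens, Wfdc17 is high in scaffolds and tumors at low marker sums, and Cstb is lowest in spleens and lungs.

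The genes most like the members over the 45 libraries were named by Pearson's r of log2(CPM + 1) among 13751 genes, as a description in which libraries of a tissue share their makeup. The mean profile of the stefin A members was closest to Cstdc5 (r = 0.973), then Prok2, a chemokine-like protein secreted by neutrophils (0.933), the long noncoding RNA Mirt2 (0.901), S100a8, a calcium-binding protein abundant in neutrophils (0.891), and Csf3r, the receptor for granulocyte colony-stimulating factor (0.887). Wfdc17 was closest to Ccr1, a chemokine receptor of myeloid cells (0.902), Itgam, the integrin chain CD11b (0.838), and C5ar1, the receptor for complement C5a (0.828), followed by Alox5ap (0.792) and AA467197 (0.790). Cstb was closest to Cd63, a tetraspanin of lysosomal membranes (0.961), and to Spg21 (0.946), Srxn1 (0.944), Txn1 (0.943) and Akr1b8 (0.942), of which Srxn1 and Txn1 act in thiol redox control. Among the members, Stfa2l1 and Cstdc4 were the most alike pair (r = 0.977), the 4 stefin A genes other than Stfa1 gave 0.876 to 0.977 in pairs, and each stood between 0.579 and 0.697 with Wfdc17. Cstb gave values from -0.38 to -0.08 with the stefin A genes and 0.534 with Wfdc17.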

How the data were processed

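RNA from 45 mouse tissue samples was sequenced as 3′ tags carrying unique molecular identifiers, and the authors deposited whole-number counts per gene symbol, without normalization. The submitters' processing notes name Trim Galore 0.5.0, STAR 2.6.0 and featureCounts. The genome build, annotation, handling of strand, of multiply matching reads and of identifiers is not given in the sources used here. Repeated symbols (120 of 55487 lines) were added up, 0 columns were left unused, and 0 of 45 pairs of libraries within groups were identical. The 12 spleens, 12 lungs, 12 scaffolds and 9 tumors were modelled separately, every group of the tissue in the model and genes with more than 10 counts kept. Tests were edgeR 4.0.16 quasi-likelihood F tests with TMM factors (R 4.3.3), and p-values were adjusted by Benjamini-Hochberg over the genes tested. The steps were tested on simulated data. CPM use raw library totals without TMM factors. Standard errors came from the quasi-likelihood fit and SDs from the 3 libraries of a group, so both include spread between libraries. The floor of 3 counts covers counting error only. Alternatives were DESeq2 1.42.0, its size factors in edgeR, a model restricted to the 2 groups compared, the 5 stefin A members summed, no filter, a filter of 10 counts in every sample, and each library left out. The lung and scaffold difference was tested after seeing the data. The members and the 14 gene lists were chosen with earlier results of these data known. Named from each list were at most 3 genes with the largest change among those called in 4T1 against control spleens, lungs or scaffolds or 4T1 against 67NR tumors, defining markers and the 5 genes most like each profile.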

Additional observations from a re-analysis of the deposited data

Results flagged for a closer look

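The lung and scaffold changes of the members differed by a test of the difference itself, in 1 edgeR fit over both tissues. Values are the lung minus the scaffold log2 change, and beside them stand the shares of 25093 genes that passed. For 4T1 against control (1.07% of genes) they were 5.11 for Cstdc4, 5.38 for Stfa2, 5.14 for Stfa2l1, 8.78 for Stfa3 and 5.61 for Wfdc17. For 4T07 against control (23.2%) they were 0.86 for Cstb, 4.57 for Cstdc4, 4.21 for Stfa2, 4.81 for Stfa2l1, 7.32 for Stfa3 and 4.38 for Wfdc17. For 4T1 against 4T07 (21.2%) they were -1.01 for Cstb, 1.46 for Stfa3 and 1.23 for Wfdc17.

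This test and its leave-outs were chosen after seeing the data, and leaving out single libraries gave 4 to 5, 5 to 6 and 2 to 4 members in these comparisons. Stfa3 and Wfdc17 were already present in control scaffolds (6.45 to 12.4 and 239 to 342 CPM) and near the floor or low in control lungs (at most 0.36 and 20.9 CPM). Stfa2 was at 0 to 3.48 CPM in control scaffolds, and without replicate 2 of these its difference fell to 3.42 for 4T1 (adjusted p = 0.668) and 2.25 for 4T07 (adjusted p = 0.45, edgeR). The difference of Cstb for 4T07 against control (adjusted p = 0.0546) was lost without any of 4 single libraries, and that of Stfa3 for 4T1 against 4T07 (adjusted p = 0.0745) without any of 7, falling to 0.57 without replicate 1 of the 4T07 scaffolds.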

How the results depend on the processing

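With at least 10 counts required in every sample, which drops genes absent from a group, members called fell to 1 in each of the lung comparisons with 4T07 or 4T1, to 1 in 4T07 against 67NR and in 4T1 against 67NR tumors and to 0 in 4T1 against 4T07 tumors. Genes of the lists called under that filter were 23 (of 42) in 4T1 against control, 37 (of 59) in 4T1 against 4T07 and 46 (of 70) in 4T07 against control lungs. They were 19 (of 40) in 4T07 against control scaffolds and 14 (of 37) in 4T1 against 67NR tumors. Without a count filter edgeR's prior degrees of freedom became infinite (8.32 in scaffolds with it), and members called in scaffolds rose to 3 in 4T1 against 67NR and 2 in 4T1 against control, with 26 list genes in the latter. For that comparison DESeq2 called 7 list genes and its size factors in edgeR 1, against 0. With only the 2 compared groups, 0 members were called in 4T1 against 4T07 and 1 in 4T1 against 67NR scaffolds. With the stefin A members summed, the call counts became 2 in 4T07 against 67NR scaffolds and 0 in 4T1 against 4T07 tumors. DESeq2 called 2 members in 4T1 against 67NR tumors.

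Leaving out single libraries gave 2 to 6 members in 4T1 against 4T07 lungs, 3 to 5 in 4T07 against control, 0 to 2 in 4T1 against 4T07 and 0 to 3 in 4T1 against control scaffolds, and 0 to 1 in 4T1 against 4T07 and 2 to 4 in 4T1 against 67NR tumors. It gave 24 to 42 list genes in 4T07 against control scaffolds and 0 to 8 in 4T1 against control scaffolds. The Cstb ratio to neutrophil markers changed sign, at -0.34 without replicate 3 of the 4T1 lungs, -0.19 without replicate 2 of the 4T1 spleens and -0.22 without replicate 3 of the 4T07 spleens, the ranges being -0.34 to 0.73 in lungs and -0.22 to 0.72 in spleens. With the 13 neutrophil markers other than S100a8 and S100a9 as the reference, the log2 ratios of 4T1 over 4T07 became 0.53 (from 1.42) for stefin A and 1.66 (from 2.53) for Wfdc17 in lungs, and -0.48 in lungs and -0.19 in spleens for Cstb. Of the 5 genes most like each profile, 3 were shared for stefin A with 0.1 CPM added or with Spearman's rho, and 2 for Wfdc17 and 3 for Cstb with Spearman's rho. Shares of all genes called without a count filter or without single libraries are not given here, so the member counts there have no such background. Where a cause is not named it was not tested. The alternatives for list genes and the reference of 13 markers were chosen after seeing the data. DESeq2 size factors moved the median of all genes by less than 0.1 log2 in every comparison. No paired analysis was possible because the labels give no replicate numbers that groups share. With 3 libraries a group an exact permutation test cannot go below p = 0.1, and at these depths a stefin A level under 1 CPM rests on a handful of tags.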
